A study of Mus musculus with 6 samples.

Results

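Levels of 10 genes of the AP-1, BATF, and BACH2 transcription factors were read across the series: *Fos*, *Fosb*, *Fosl2*, *Jun*, *Junb*, *Jund*, *Batf*, *Batf3*, *Bach2*, and *Mafk*. They were chosen by name, with earlier results of these data known. By symbol they matched 10 of the 47643 genes counted, and 9 of the 10 had at least 10 reads summed over the 6 samples, as 11877 of all genes did. The exception was *Batf3*. The cells came from spleens of Tg4 Tiger Nr4a3-Tocky mice and were CD4+ T cells. These mice carry a transgenic T cell receptor for a myelin basic protein (MBP) peptide, a GFP reporter of *Il10*, and a Timer protein driven by *Nr4a3* whose newly made form is blue and whose mature form is red. All mice were immunized subcutaneously with 80 μg of [4Y] MBP peptide and re-challenged about a day later with 8 μg. They differed in the 800 μg of antibody given intraperitoneally 30 min ahead of the second peptide dose, which was an isotype control (a pool of rat IgG1 and IgG2a), anti-PD1 (clone 29F.1A12), or anti-Lag3. Cells positive for both Timer forms were sorted 4 h after re-challenge, with 2 samples per group. Every group was therefore selected for recent *Nr4a3* activity, and all values refer to cells with that activity. A further batch of 3 samples that the authors excluded after principal component analysis was not used here.

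AP-1 is a dimer of basic leucine zipper (bZIP) proteins, usually a FOS family member with a JUN family member, which is made within minutes to hours of T cell receptor and co-stimulatory signaling and binds DNA beside NFAT. BATF and BATF3 lack the transactivation domain of FOS but pair with JUN proteins and, with IRF4 or IRF8, bind composite elements that are central to effector CD4+ T cell programs. BACH2 pairs with small MAF proteins such as MAFK and represses effector genes at many AP-1 sites, so it is known as a counterweight to BATF and JUN in T cells.

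The depth set the precision of these values. Total counts ran from 2107715 to 2648920 per sample, 3 reads amounted to 1.11 to 1.44 CPM, which are reads scaled for TMM-adjusted library size, and *Gm42418* alone took 17.4% to 21% of the counts. Counting intervals and this floor cover counting error only, because reads copied from the same molecule were not told apart. All 10 CD4 T cell markers examined were detected, with summed levels of 2644 and 2804 CPM with isotype, 2424 and 2603 CPM with anti-PD1, and 2847 and 2624 CPM with anti-Lag3. Summed B cell markers were at 138.5 and 148.9 CPM with isotype, 72.35 and 64.61 CPM with anti-PD1, and 90.67 and 132.6 CPM with anti-Lag3, and *Cd79a* was at 0 in every sample. Summed macrophage and monocyte markers were at 66.92 and 55.95 CPM with isotype, 17.73 and 33.12 CPM with anti-PD1, and 29.94 and 30.83 CPM with anti-Lag3. Summed NK and CD8 T cell markers were at 58.91 and 52.33 CPM with isotype and 31.89 to 35.94 CPM in the 4 anti-PD1 and anti-Lag3 samples. Summed erythroid and granulocyte markers were at 47.12 and 49.51 CPM with isotype against 19.4 to 40.48 CPM. All 4 of these sums were thus higher in both isotype samples than in any anti-PD1 or anti-Lag3 sample. Their part in the results for the factors was not tested. *Nr4a3* itself had 109 and 112 reads with isotype, 62 and 72 with anti-PD1, and 97 and 99 with anti-Lag3, and by edgeR it was not called in any comparison (adjusted p = 0.195 for anti-PD1 against isotype). *Pdcd1* and *Lag3*, which encode the antibody targets, had 27 to 46 and 7 to 18 reads per sample and were not called in any comparison.

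The stretches just upstream of the factors' own start sites are shown because bZIP proteins are known to regulate several of these genes. Altogether 4 words were searched on both strands in the 250 bases before each RefSeq start: the AP-1 site TGANTCA, the cyclic AMP response element (CRE) and its variants TGACNTCA, the core TGACG of the CRE, which also lies inside the palindromic CRE, and the MAF recognition core TGCTGA. Of 32851 RefSeq promoters, 6.75% held TGANTCA, 7.49% TGACNTCA, 17.8% TGACG, and 16.1% TGCTGA. Among the 10 factors, 0 held TGANTCA, 1 held TGACNTCA (*Jun*), 5 held TGACG (*Fos*, *Fosb*, *Junb*, *Batf*, and *Mafk*), and 1 held TGCTGA (*Mafk*, on the reverse strand and outside the stretch printed). The windows of *Fosl2* (whole) and *Batf3* (163 of its 250 bases) lie in annotated exons, so they were searched but are not printed. The windows of *Bach2* and *Jund* end at chr4:32417434 and chr8:70697738. They precede RefSeq starts that differ from the gene starts given below (32238804 and 70698949), so they do not describe the bases before those starts. A match describes these letters only, and its absence says nothing about the factor. The 6 promoters with a match to a CRE word follow in GRCm38.p6, 5′ to 3′ on the strand of the gene, with the match in capitals and no annotated exon included. They are *Fos* at chr12:85473740-85473889 (plus strand), *Fosb* at chr7:19310052-19310201 (minus), *Jun* at chr4:95052223-95052372 (minus), *Junb* at chr8:84978749-84978898 (minus), *Batf* at chr12:85686519-85686668 (plus), and *Mafk* at chr5:139791363-139791512 (plus).
Fos: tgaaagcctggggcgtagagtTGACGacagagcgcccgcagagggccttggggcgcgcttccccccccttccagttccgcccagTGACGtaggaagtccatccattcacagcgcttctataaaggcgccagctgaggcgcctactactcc
Fosb: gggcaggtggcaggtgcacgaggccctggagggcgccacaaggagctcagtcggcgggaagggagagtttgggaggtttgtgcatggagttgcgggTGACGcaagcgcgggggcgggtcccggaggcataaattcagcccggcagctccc
Jun: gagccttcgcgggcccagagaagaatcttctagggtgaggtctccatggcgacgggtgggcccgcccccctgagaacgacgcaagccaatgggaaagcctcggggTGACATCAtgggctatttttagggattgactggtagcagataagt
Junb: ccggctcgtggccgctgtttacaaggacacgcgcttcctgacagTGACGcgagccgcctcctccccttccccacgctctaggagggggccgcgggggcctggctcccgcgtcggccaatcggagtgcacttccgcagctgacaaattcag
Batf: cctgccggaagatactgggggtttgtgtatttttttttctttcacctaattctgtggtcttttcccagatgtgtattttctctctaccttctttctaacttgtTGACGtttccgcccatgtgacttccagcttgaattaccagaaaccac
Mafk: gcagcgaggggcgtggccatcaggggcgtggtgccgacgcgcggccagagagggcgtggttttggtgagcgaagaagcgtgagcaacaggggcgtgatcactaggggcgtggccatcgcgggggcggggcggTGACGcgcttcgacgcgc

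The *Fos* promoter held the core word at 129 and at 66 bases ahead of the start, and *Junb*, *Batf*, *Fosb*, and *Mafk* held it at 106, 98, 60, and 41 bases ahead. *Jun* held its TGACATCA at 45 bases ahead. *Fos* and *Batf* are neighbors on chromosome 12, with 209.4 kb and the protein-coding gene *Jdp2* between them. The groups overlapped for *Fos*, as given below, so its order over them cannot be compared with that of *Batf*.

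None of the 9 factors tested passed the adjusted threshold in any comparison, so their values are given as levels with their error. Among them *Fosl2* came nearest, with both anti-PD1 samples above both isotype samples. *Jun*, *Junb*, *Batf*, and *Mafk* had the same arrangement, while the groups overlapped in every pair for *Jund* and *Bach2*. Between 2 groups, separation in a given direction occurred in 17.3% to 19.2% of all genes, depending on the comparison. Shares of all genes for arrangements over 3 groups were not counted. *Fos* and *Fosb* had few reads and wide errors. In sorted populations, fewer cells that express a gene and less RNA per cell cannot be told apart.

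**Figure D1:**
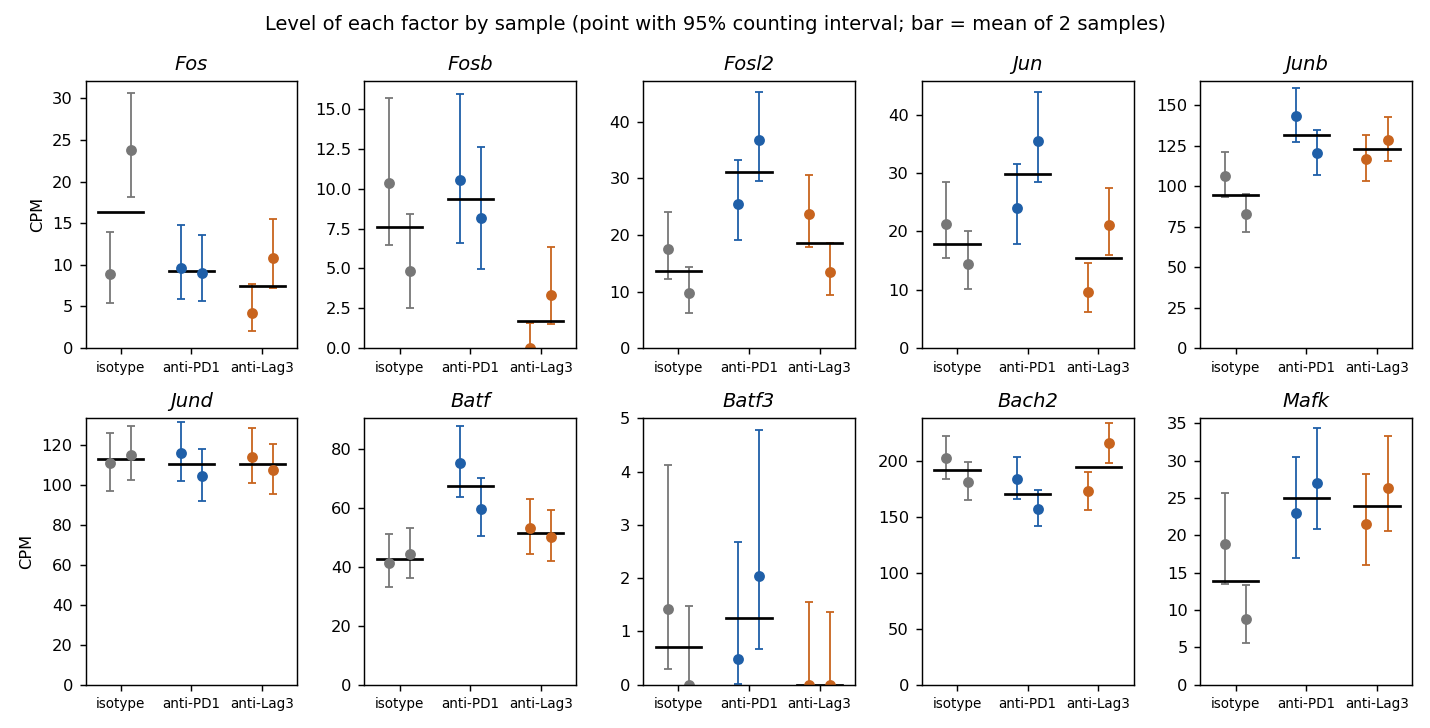
CPM (y axis from 0) of each of the 10 factors in the 2 isotype (grey), 2 anti-PD1 (blue), and 2 anti-Lag3 (orange) samples. Points are samples with 95% exact Poisson intervals, which cover counting error, and black bars are group means. *Batf* and *Fosl2* lay highest in the 2 anti-PD1 samples, *Jund* was level, and *Batf3* had at most 5 reads in any sample.

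Of the FOS family, *Fos* (ENSMUSG00000021250, chromosome 12, 85473890 to 85477273, GRCm38), the early and short-lived partner of JUN, was at 8.95 and 23.75 CPM with isotype, 9.58 and 8.996 CPM with anti-PD1, and 4.22 and 10.77 CPM with anti-Lag3. The second isotype sample, with 59 reads, was higher than every other sample, and the groups overlapped. The group means were 16.35 ± 10.46 CPM with isotype, 9.29 ± 0.415 CPM with anti-PD1, and 7.49 ± 4.64 CPM with anti-Lag3 (SD, n = 2 each).
*Fosb* (ENSMUSG00000003545, chromosome 7, 19302696 to 19310051) encodes a further inducible FOS protein. It was at 10.37 and 4.83 CPM with isotype, 10.54 and 8.18 CPM with anti-PD1, and 0 and 3.34 CPM with anti-Lag3. Both anti-Lag3 samples, with 0 and 9 reads, lay below all 4 other samples, which had 12 to 22 reads. In the library with 0 reads, the floor of 3 reads amounts to 1.265 CPM. The isotype mean of 7.60 CPM was 6.01-fold that floor, and the anti-PD1 mean of 9.36 CPM was 7.40-fold that floor. These folds are not lower limits, because the exact Poisson interval of that library reached 1.556 CPM, above the floor. They also leave out the error of the group means.
*Fosl2* (ENSMUSG00000029135, chromosome 5, 32135801 to 32157842) encodes FRA2, a later and more stable FOS protein. It was at 17.44 and 9.66 CPM with isotype, 25.4 and 36.8 CPM with anti-PD1, and 23.62 and 13.37 CPM with anti-Lag3. Both anti-PD1 samples were above every other sample, and isotype and anti-Lag3 overlapped. The mean was 31.1 ± 8.07 CPM with anti-PD1 against 13.55 ± 5.498 CPM with isotype and 18.5 ± 7.24 CPM with anti-Lag3 (SD, n = 2 each).

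Of the JUN family, *Jun* (ENSMUSG00000052684, chromosome 4, 95049034 to 95052222) was at 21.21 and 14.49 CPM with isotype, 23.96 and 35.57 CPM with anti-PD1, and 9.70 and 21.17 CPM with anti-Lag3. The anti-PD1 samples were the highest, and the anti-Lag3 and isotype ranges overlapped. *Junb* (ENSMUSG00000052837, chromosome 8, 84974484 to 84978718), the JUN protein that pairs with BATF in effector T cells, was at 106.5 and 82.92 CPM with isotype, 143.3 and 120.2 CPM with anti-PD1, and 116.8 and 128.5 CPM with anti-Lag3. All 4 anti-PD1 and anti-Lag3 samples exceeded both isotype samples, and the ranges of anti-PD1 and anti-Lag3 overlapped. The 3′ end of *Junb* overlaps that of *Prdx2* on the other strand, which had 171 to 277 reads per sample, and the strand setting of the counting is not given in the sources used here. *Jund* (ENSMUSG00000071076, chromosome 8, 70698949 to 70700616), the JUN protein present in resting cells, was at 110.7 and 115.1 CPM with isotype, 116 and 104.3 CPM with anti-PD1, and 113.9 and 107.3 CPM with anti-Lag3. Its groups overlapped in all pairs, and the means of 112.9 ± 3.10, 110.1 ± 8.26, and 110.6 ± 4.61 CPM (SD, n = 2 each) differed by less than the spread between the anti-PD1 samples.

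*Batf* (ENSMUSG00000034266, chromosome 12, 85686669 to 85709087), which is needed for Th17 and follicular helper T cells, was at 41.47 and 44.28 CPM with isotype, 75.23 and 59.7 CPM with anti-PD1, and 53.13 and 50.14 CPM with anti-Lag3. The 3 groups did not overlap, with isotype lowest, anti-Lag3 between, and anti-PD1 highest. How many of all genes had this order was not counted, and *Batf* was not called in any comparison. The group means were 42.9 ± 1.99 CPM with isotype, 67.5 ± 10.98 CPM with anti-PD1, and 51.6 ± 2.12 CPM with anti-Lag3 (SD, n = 2 each). *Batf3* (ENSMUSG00000026630, chromosome 1, 191097847 to 191108945), best known from cross-presenting dendritic cells and Th1 cells, had 3 and 0 reads with isotype, 1 and 5 with anti-PD1, and 0 and 0 with anti-Lag3. At this depth no difference in *Batf3* was detectable, since only the second anti-PD1 sample exceeded the floor of 3 reads. Of the 8 dendritic cell markers, *Batf3* included, *Clec9a*, *Siglech*, and *Zbtb46* were at 0 in every sample, and the summed level was 0.805 to 5.18 CPM.

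*Bach2* (ENSMUSG00000040270, chromosome 4, 32238804 to 32586108) was at 202.6 and 181.5 CPM with isotype, 184 and 157.4 CPM with anti-PD1, and 172.9 and 215.8 CPM with anti-Lag3. The ranges overlapped in every pair of groups, and the lowest value was in the second anti-PD1 sample. BACH2 is also made by B cells, whose summed markers were lowest in the anti-PD1 samples as given above, and their part in its level was not tested. Its partner *Mafk* (ENSMUSG00000018143, chromosome 5, 139791513 to 139802653) was at 18.85 and 8.86 CPM with isotype, 23 and 26.99 CPM with anti-PD1, and 21.51 and 26.37 CPM with anti-Lag3. All 4 anti-PD1 and anti-Lag3 samples exceeded both isotype samples for *Mafk*, and the isotype samples, with 40 and 22 reads, differed most from each other. The 3′ end of *Mafk* overlaps *Tmem184a* on the other strand, which had reads in 1 sample only (4 reads in the first anti-Lag3 sample).

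The comparison of anti-PD1 with isotype asks which genes change when PD1 is blocked during re-activation. *Fosl2* and *Mafk* had the largest positive log2 fold changes of the factors at 1.22 and 0.87, followed by *Jun* at 0.75, *Batf* at 0.65, and *Junb* at 0.48. *Fosb* was at 0.31, *Jund* at −0.04, *Bach2* at −0.17, and *Fos* at −0.83. By the quasi-likelihood test of edgeR, adjusted by Benjamini-Hochberg over all 11877 genes tested, 0 of the 9 factors were called at an adjusted p under 0.05, where 0.901% of all genes were, and DESeq2 and limma-voom called 0 as well. At an unadjusted p under 0.05, 5 of the 9 were counted, all higher with anti-PD1 (*Fosl2*, *Jun*, *Junb*, *Batf*, and *Mafk*), where 8.12% of all genes were counted and 4.3% were counted as higher. The groups did not overlap, with anti-PD1 higher, for these same 5 factors, an arrangement seen in 19.2% of all genes. The median log2 fold change of the 9 factors was 0.48, with 6 positive and 3 negative, against 0.00 over all genes. Because the factors were chosen with earlier results of these data known, their counts and medians are no independent evidence in any comparison.
For *Fosl2* the log2 fold change of 1.22 had a standard error of 0.34, a 95% interval of 0.54 to 1.90, and an adjusted p of 0.0739 by edgeR (0.000858 unadjusted), which placed it at rank 137 of the genes tested. *Batf* had a standard error of 0.20, an interval of 0.24 to 1.05, and an adjusted p of 0.146 by edgeR. *Junb* had a standard error of 0.16, an interval of 0.16 to 0.79, and an adjusted p of 0.183 by edgeR. The intervals of *Mafk* (0.20 to 1.55) and *Jun* (0.08 to 1.42) also lay above 0, with adjusted p of 0.373 and 0.504 by edgeR. The intervals of *Jund* (−0.34 to 0.26) and *Bach2* (−0.44 to 0.10) were narrower than those of *Fos* (−1.73 to 0.07) and *Fosb* (−0.89 to 1.51). That of *Bach2* still reaches down to 0.736-fold of isotype, so equal levels were not shown.
Depth and spread set what could be called. With the standard errors found, a call needed a log2 change of 0.52 in *Bach2*, 0.57 in *Jund*, 0.60 in *Junb*, and 0.77 in *Batf*, but 1.27 to 1.30 in *Jun*, *Mafk*, and *Fosl2*, 1.71 in *Fos*, and 2.28 in *Fosb*. The observed change of *Fosl2* thus fell just short of the size needed.

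**Figure D2:**
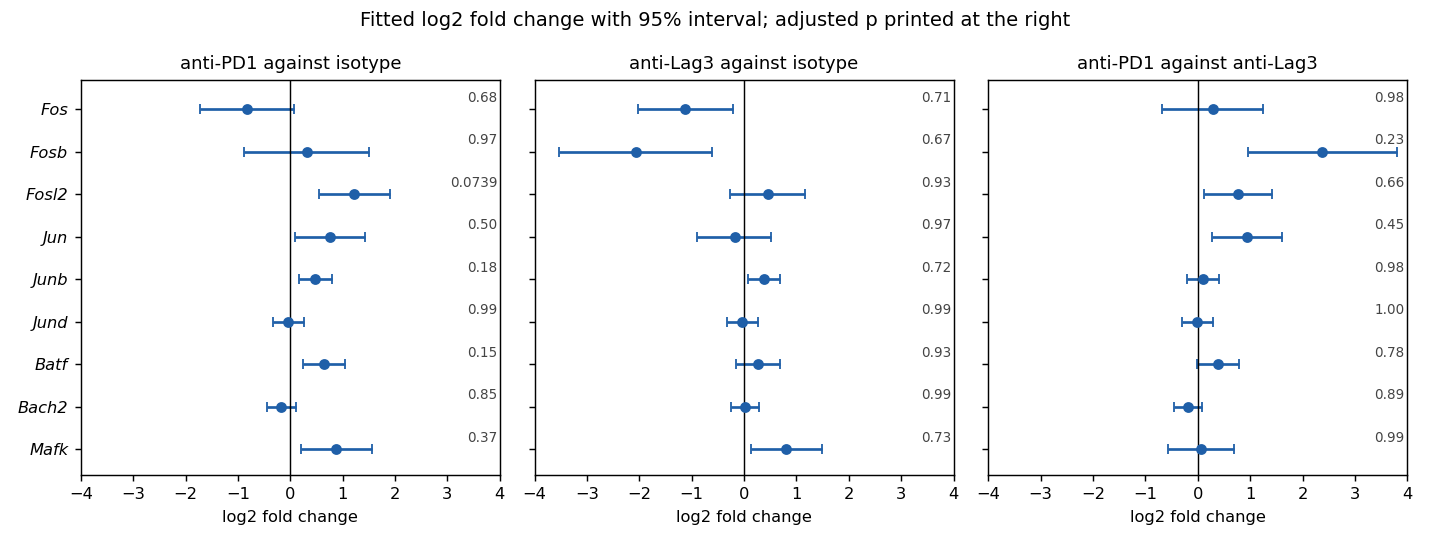
Fitted log2 fold change (x axis) of the 9 factors tested in each of the 3 comparisons. Bars are approximate 95% intervals derived from edgeR's quasi-likelihood test, and the adjusted p is printed at the right of each row. The intervals of 5 factors lie above 0 for anti-PD1 against isotype, and no adjusted p is under 0.05.

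The comparison of anti-Lag3 with isotype asks the same of Lag3 blockade, and it shares the isotype samples with the comparison above. *Mafk* and *Junb* were on the higher side with anti-Lag3, with log2 fold changes of 0.81 and 0.38, and *Fosb* and *Fos* on the lower side, with −2.07 and −1.12. *Fosl2* was at 0.45, *Batf* at 0.27, *Bach2* at 0.02, *Jund* at −0.03, and *Jun* at −0.18. By edgeR, 0 of the 9 factors were called, where 0.0421% of all genes were, and DESeq2 and limma-voom called 0 as well. At an unadjusted p under 0.05, 4 were counted (*Junb* and *Mafk* higher, *Fos* and *Fosb* lower), where 5.96% of all genes were, 2.99% as higher and 2.97% as lower. The groups did not overlap for *Junb*, *Batf*, and *Mafk*, which were higher, and for *Fosb*, which was lower, where 17.3% of all genes were so arranged in each direction. The median of the 9 factors was 0.02, against 0.00 over all genes.
The 95% intervals were −3.53 to −0.61 for *Fosb*, −2.03 to −0.21 for *Fos*, 0.14 to 1.49 for *Mafk*, and 0.07 to 0.69 for *Junb*, with adjusted p of 0.667, 0.715, 0.727, and 0.717 by edgeR. The interval of *Bach2* was −0.25 to 0.29. The *Fosb* value rests on the first anti-Lag3 sample, which had 0 reads. Without that sample its log2 fold change was −1.16 with an adjusted p of 0.787 by edgeR, and without the second anti-Lag3 sample, which leaves 0 reads in the group and no finite fold, it was called (adjusted p = 0.0306 by edgeR). With *Fos*, leaving out the second isotype sample moved the log2 fold change from −1.12 to −0.24.

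Anti-PD1 and anti-Lag3 were also compared directly. *Fosb*, *Jun*, and *Fosl2* were on the higher side with anti-PD1, with log2 fold changes of 2.38, 0.94, and 0.77, and *Batf* was at 0.38. *Fos* was at 0.29, *Junb* at 0.10, *Mafk* at 0.06, *Jund* at −0.01, and *Bach2* at −0.19. By edgeR, 0 of the 9 factors were called, where 0.303% of all genes were, and limma-voom called 0 as well. DESeq2 called 0 of the 4 factors for which it gave an adjusted p and gave none for the other 5 (*Fos*, *Fosb*, *Fosl2*, *Jun*, and *Mafk*). At an unadjusted p under 0.05, *Fosb*, *Jun*, and *Fosl2* were counted as higher with anti-PD1 (3 of 9), where 6.53% of all genes were counted and 3.5% as higher. The groups did not overlap, with anti-PD1 higher, for these 3 and *Batf*, as in 18.2% of all genes, and the median of the 9 factors was 0.29.
The 95% intervals were 0.95 to 3.81 for *Fosb*, 0.27 to 1.61 for *Jun*, and 0.11 to 1.42 for *Fosl2*, with adjusted p of 0.230, 0.450, and 0.660 by edgeR. *Batf* (−0.01 to 0.78), *Junb* (−0.21 to 0.40), and *Mafk* (−0.57 to 0.69), the factors placed above isotype with both anti-PD1 and anti-Lag3, had intervals here that span 0. Neither antibody was shown to act on these factors differently from the other.

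*Fosl2* crossed the threshold in some settings and not in others in the comparison of anti-PD1 with isotype. It was called by edgeR on the 4 samples of the comparison alone (adjusted p = 0.0151), with no filter beyond 1 read (0.0262), and with the replicate number as a block (0.0318, not plotted). It was not called by DESeq2 (0.504), limma-voom (0.069), or limma on the deposited rlog values (0.0718). Leaving out the first isotype sample (0.0226) or either anti-Lag3 sample (0.0169 without the first, 0.0144 without the second) gave a call by edgeR, whereas leaving out the second anti-PD1 sample, where *Fosl2* was highest, gave a log2 fold change of 0.92 and an adjusted p of 0.750. The other 4 factors with intervals above 0 were not called in any setting plotted, and their smallest adjusted p-values by edgeR were 0.0633 for *Mafk*, 0.0737 for *Junb*, 0.0889 for *Batf*, and 0.328 for *Jun*. Without the first isotype sample the log2 fold change of *Mafk* was 1.5, and without the second it was 0.41.

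**Figure D3:**
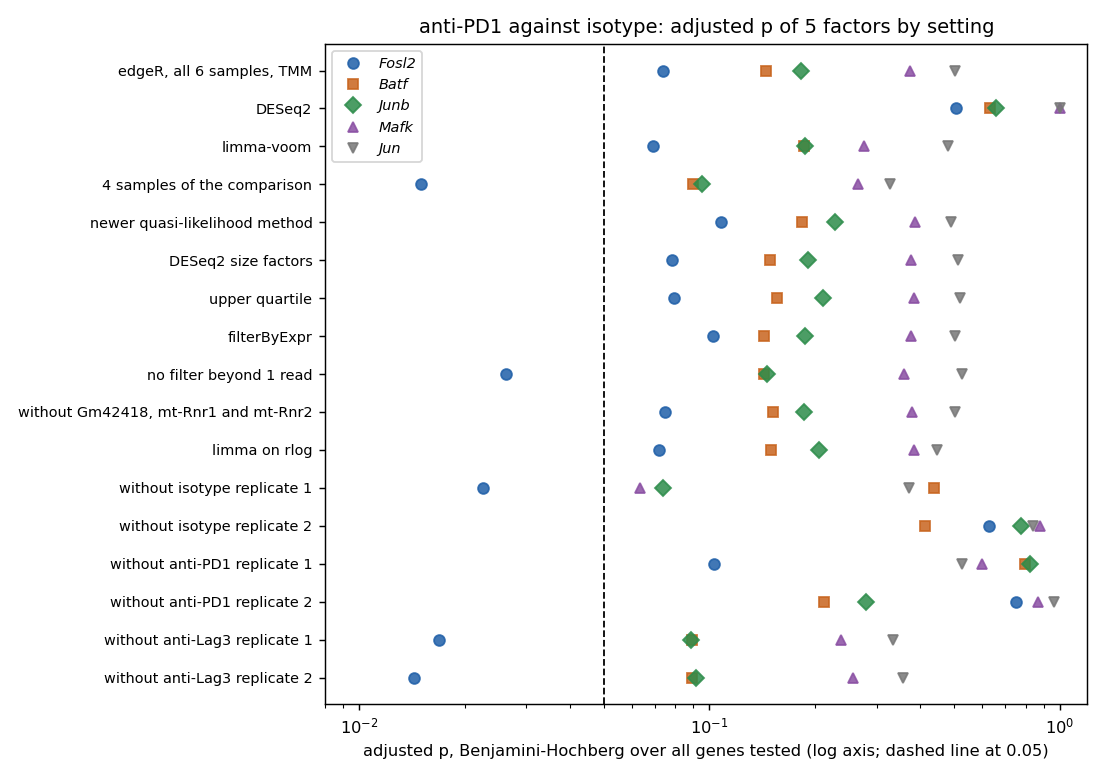
Adjusted p (x axis, log scale, dashed line at 0.05) of *Fosl2*, *Batf*, *Junb*, *Mafk*, and *Jun* for anti-PD1 against isotype. There is a row for each way of fitting the data or sample left out, except the fit with the replicate number as a block. *Fosl2* lies between 0.0144 and 0.750 and crosses the line in both directions, and the other 4 stay to its right.

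The balance of BATF and BACH2 was also read within each library, where total depth cancels. The ratio of *Batf* to *Bach2* reads was 0.205 and 0.244 with isotype, 0.409 and 0.379 with anti-PD1, and 0.307 and 0.232 with anti-Lag3. Both anti-PD1 samples had a higher ratio than all other samples, and isotype and anti-Lag3 overlapped. The ratio reuses the levels given above, and its factors were chosen with earlier results of these data known. Its arrangement is thus no independent evidence. On the log2 scale the mean was −1.34 ± 0.08 with anti-PD1, −2.17 ± 0.18 with isotype, and −1.90 ± 0.29 with anti-Lag3 (SD, n = 2 each). On the deposited rlog values, which are shrunken, the difference of *Batf* minus *Bach2* was −1.58, −1.94, and −1.85 in the same order, so the arrangement held with a smaller gap. No p-value is given, because an exact permutation test of 2 samples against 2 cannot go below 0.333. The ratio of *Junb* to *Jund*, chosen after the values were seen, was 0.962 and 0.72 with isotype, 1.24 and 1.15 with anti-PD1, and 1.03 and 1.2 with anti-Lag3. All 4 anti-PD1 and anti-Lag3 samples thus lay above isotype. The ratio of *Fosl2* to *Fos*, also chosen after the values were seen, was 1.95 and 0.407 with isotype, 2.65 and 4.09 with anti-PD1, and 5.6 and 1.24 with anti-Lag3, so that anti-Lag3 overlapped both other groups.

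**Figure D4:**
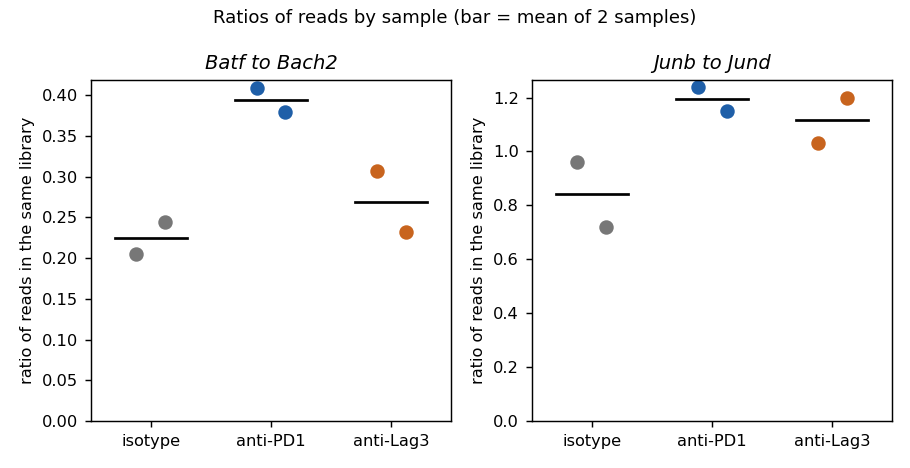
Ratio of *Batf* to *Bach2* reads (left) and of *Junb* to *Jund* reads (right) in each library (y axis from 0), by group, with points for samples and bars for the mean of 2. The anti-PD1 samples, at 0.409 and 0.379, stand above the other 4 for *Batf* to *Bach2*, and only the isotype samples lie below 1 for *Junb* to *Jund*.

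Genes that act around the factors were read from lists, all chosen with earlier results of these data known. Of 31 other bZIP factors tested, 2 rose and 0 fell with anti-PD1 against isotype, and the list median was 0.06 on the log2 scale. *Crem*, which encodes a CRE-binding factor with an inducible repressor form, had 54 and 23 reads with isotype and 125 and 154 with anti-PD1, a log2 change of 1.85 (adjusted p = 5.65e-05 by edgeR). It was called in every setting run. *Nfil3*, a bZIP repressor, had 23 and 19 reads against 62 and 71 (1.67, adjusted p = 0.00929 by edgeR), and it was not called by DESeq2 (0.123). Of 24 kinases and adaptors upstream of AP-1, 3 rose (*Elk1*, *Map2k3*, and *Malt1*, at 1.98, 0.76, and 1.06) and 0 fell, with a median of 0.04. ELK1 is a direct activator of *Fos* transcription, and its gene had 8 and 14 reads with isotype and 38 and 48 with anti-PD1. *Elk1* and *Map2k3* were not called by DESeq2 (adjusted p = 0.106 and 0.123). Each also lost its edgeR call without the second isotype sample, as *Malt1* and *Nfil3* did, and without either anti-PD1 sample, as *Nfil3* did. *Elk1* lost it without the first isotype sample as well.
Of 14 BATF partners and BATF-dependent genes tested, 7 rose with anti-PD1 (*Irf4*, *Irf8*, *Il21*, *Il17f*, *Icos*, *Rora*, and *Il12rb2*) and 0 fell, and the list median was 0.79. This list was drawn up with these results known, so its count is no independent evidence. *Irf4* and *Irf8*, which encode the partners of BATF–JUN dimers, had log2 fold changes of 0.51 and 0.71, and *Rora*, a Th17 factor, had 292 and 201 reads with isotype against 629 and 654 with anti-PD1 (1.39, adjusted p = 9.16e-08 by edgeR). *Irf4* lost its edgeR call without the second isotype sample or either anti-PD1 sample, *Icos* without the second anti-PD1 sample, and *Il17f* without the first anti-PD1 sample and by limma-voom (adjusted p = 0.0773). Of 9 tested genes that BACH2 is known to repress, *Irf4* and *Nfil3* rose and 0 fell, while 5 of the 9 values were negative. The list median of −0.66 was the value of *Ccr4*, with 8 and 13 reads with isotype and 5 and 8 with anti-PD1. *Ccr9* and *S100a4*, also negative, had at most 7 reads in any of these samples. *Gata3*, the negative gene with the most reads, had 46 and 118 with isotype and 26 and 46 with anti-PD1 (adjusted p = 0.106 by edgeR). Of 7 tested activation genes with joint NFAT and AP-1 sites, 0 were called (median 0.18), and *Il2*, the one with the smallest p, had 21 and 15 reads with isotype and 49 and 29 with anti-PD1 (adjusted p = 0.312 by edgeR). *Csf2*, *Il4*, *Il5*, and *Il13* of that list were at 0 in every sample. Of 8 tested targets of small MAF heterodimers, 0 were called (median 0.07, smallest p in *Txnrd1*). Early genes that respond to tissue handling, listed because FOS and JUN genes share that response, had 1 call among 12 (*Klf6*, 0.90), a median of 0.27, and summed levels of 2193 and 2350 CPM with isotype, 2373 and 2424 CPM with anti-PD1, and 2022 and 2348 CPM with anti-Lag3. *Klf6* lost its call without the second isotype or the second anti-PD1 sample, and by DESeq2 (adjusted p = 0.104).
With anti-Lag3 against isotype, *Il12rb2* was the one listed gene called (1.24, adjusted p = 0.0497 by edgeR). Its call was lost in 9 of 11 alternatives that kept all samples of the comparison, DESeq2 and limma-voom among them. It was also lost in 4 of 6 settings that left out a sample. The remaining lists had 0 calls with anti-Lag3 against isotype, with the smallest p in *Atf4*, *Malt1*, *Ifng*, *Gata3*, *Gclc*, and *Socs3*.

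**Figure D5:**
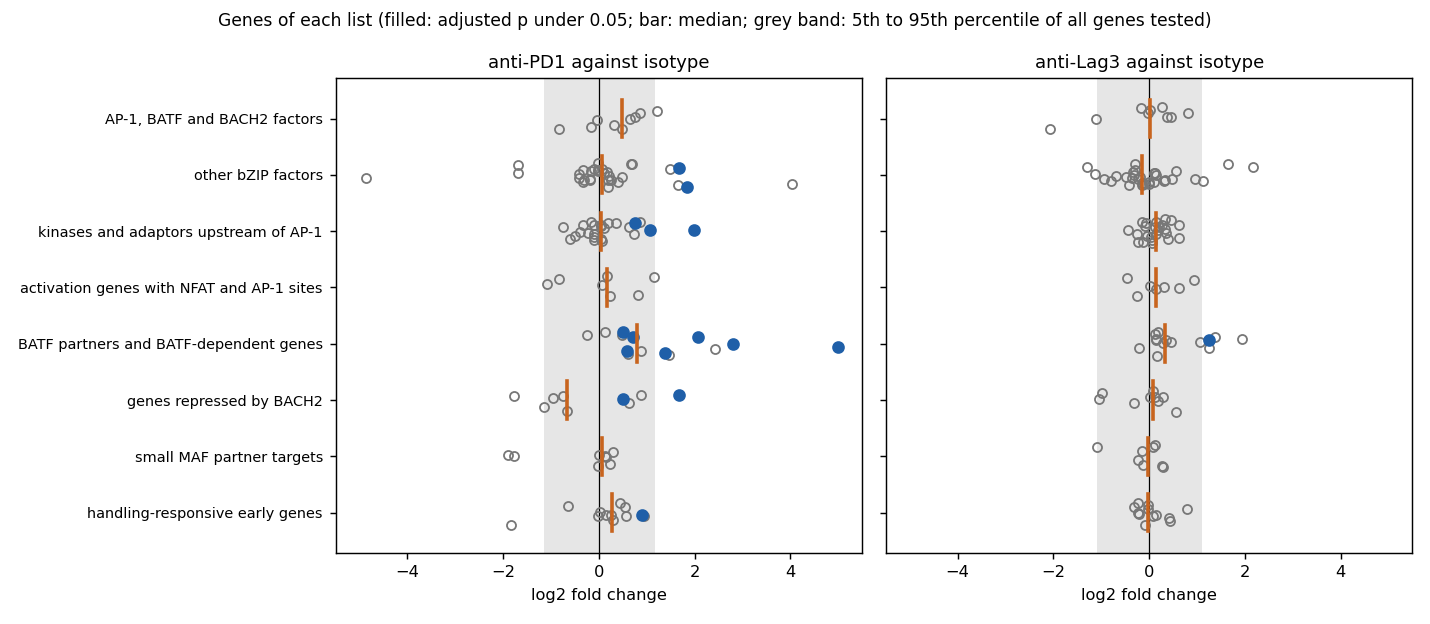
Log2 fold change (x axis) of the genes of 8 lists for anti-PD1 against isotype (left) and anti-Lag3 against isotype (right), which share the isotype samples. Filled blue points had an adjusted p under 0.05 by edgeR, orange bars are list medians, and the grey band spans the 5th to the 95th percentile of all genes tested. The factors themselves (top row) have no filled point. With anti-PD1, 7 of 14 BATF partners and BATF-dependent genes have one, where 0.901% of all genes were called, but that list was drawn up with these results known.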

How the data were processed

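Spleen CD4+ T cells positive for Nr4a3-Blue and Nr4a3-Red were profiled in 6 samples by QuantSeq 3′ RNA sequencing. The authors used Bbduk for trimming, STAR 2.5.2a for alignment to GRCm38 (mm10 in the submitters' processing notes), and HTSeq-count for counting. The annotation release and strand setting are not given in the sources used here. They deposited raw counts per Ensembl gene and rlog values, which are on a log2 scale and made with DESeq2. Groups came from the sample titles. The study calls the 2 samples of a group biological duplicates, and its methods describe replicate mice stained individually for sorting. The p-values thus refer to spread between samples of a group. For each gene that spread was estimated mostly from all genes together, through the prior given below, and little from its own samples. Samples of a group disagreed beyond sampling error (chi-square over genes, divided by its degrees of freedom, of 2.65 to 3.29), and each was kept as its own sample.

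Genes were kept if their reads summed to 10 or more over the samples, and they were tested with edgeR 4.0.16 in R 4.3.3 (TMM scaling, all 6 samples in 1 fit, quasi-likelihood test), with Benjamini-Hochberg adjustment over 11877 genes and a threshold of 0.05. The common dispersion was 0.016, and a prior worth 37.2 degrees of freedom was added to 3 residual ones. CPM use TMM-scaled library sizes. Alternatives were DESeq2 1.42.0, limma-voom and limma on rlog (limma 3.58.1), the 4 samples of a comparison, the newer quasi-likelihood method, other scalings and filters, removal of abundant structural RNA, the replicate number as a block, and each sample left out. Names matched 47224 of 47643 identifiers in GENCODE M21, promoters came from RefSeq, and plots were drawn with matplotlib 3.10.9. The members and lists were chosen with earlier results of these data known. Named genes are all members and, from each list, those called or the one with the smallest p.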

Additional observations from a re-analysis of the deposited data

Results flagged for a closer look

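Among the listed genes, 7 had changes from isotype that differed between the antibodies by the direct test of anti-PD1 against anti-Lag3. By edgeR, 0.303% of all genes were called in that test. The lists were drawn up with earlier results of these data known, so this count is no independent evidence. The bZIP factor among the 7 was *Atf4*, of the integrated stress response. It had 1323 and 1473 reads with isotype, 1239 and 2071 with anti-PD1, and 1158 and 1114 with anti-Lag3. The second anti-PD1 sample was the highest of all, and both anti-Lag3 samples lay below the other 4. Its log2 fold change was 0.25 with anti-PD1 (adjusted p = 0.551 by edgeR) and −0.43 with anti-Lag3 (adjusted p = 0.334 by edgeR), each against the same isotype samples. The difference between these, tested directly, was 0.68 (standard error 0.11, adjusted p = 0.00141 by edgeR). Without the second anti-PD1 sample it was 0.39 (adjusted p = 0.690 by edgeR), and DESeq2 gave an adjusted p of 0.323. Over the 6 fits that left out a sample it ran from 0.39 to 0.91.

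The others were *Il12rb2* (1.56), *Rora* (1.1), *Irf8* (0.55), and *Il17f* (3.05) of the BATF partners and BATF-dependent genes, *Klf6* (0.99) of the handling-responsive genes, and the B cell marker *Ighm* (−0.88), on the log2 scale and with adjusted p of 2.49e-05, 3.33e-05, 0.0104, 0.0221, 0.0063, and 0.0227 by edgeR. With a sample left out, *Il12rb2* and *Rora* were called each time, but DESeq2 did not call *Rora* (adjusted p = 0.0969). *Irf8* lost its call without either anti-PD1 sample, and *Klf6* without the second anti-PD1 or the first anti-Lag3 sample. *Il17f* and *Ighm* lost theirs without either anti-PD1 sample or the second anti-Lag3 sample. Neither limma-voom nor edgeR after filterByExpr called *Il17f* (largest adjusted p 0.0746), for which DESeq2 gave no adjusted p, and DESeq2, the newer quasi-likelihood method, and filterByExpr did not call *Ighm* (largest adjusted p 0.105 by these tools).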

How the results depend on the processing

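The number of factors called for anti-PD1 against isotype was 0 in the analysis reported and 1 (*Fosl2*) in the fit of 4 samples, with no filter beyond 1 read, and with the replicate block (adjusted p = 0.0318 by edgeR). No other factor changed its call under the block. Deviations of the samples with the same replicate number correlated at 0.0206, 0.0182, and −0.0104 between groups, over all genes tested. Counting error lowers such correlations, so they cannot decide whether the replicate numbers pair the samples. With a sample left out the count ran from 0 to 1 in each comparison, the call being *Fosl2* for anti-PD1 against isotype and *Fosb* without the second anti-Lag3 sample in both comparisons with anti-Lag3. For anti-PD1 against anti-Lag3, 1 factor (*Fosb*, adjusted p = 0.0444 by edgeR) was called with no filter beyond 1 read. The cause was not tested. Such fits assume that a lone sample varies like the other groups.

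Directions did not reverse in the 11 alternatives that kept all samples of a comparison (297 values). With a sample left out, log2 fold changes crossed 0 for *Fos* (−1.35 to 0.05), *Fosb* (−0.15 to 0.95), and *Jund* (−0.12 to 0.03) between anti-PD1 and isotype. Between anti-Lag3 and isotype they did for *Fosl2* (−0.01 to 0.93), *Jun* (−0.86 to 0.25), *Jund* (−0.08 to 0.02), and *Bach2* (−0.14 to 0.16). Between anti-PD1 and anti-Lag3 they did for *Fos* (−0.21 to 1.12), *Junb* (−0.03 to 0.22), *Jund* (−0.09 to 0.06), and *Mafk* (−0.07 to 0.21).

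Over all genes, 107 calls for anti-PD1 against isotype became 72 to 175 under the alternatives and 53 to 185 with a sample left out. The 5 calls for anti-Lag3 against isotype became 0 to 20 and 0 to 19, and the 36 for anti-PD1 against anti-Lag3 became 16 to 58 and 7 to 59. Depth limits *Fos*, *Fosb*, and *Batf3* most, at 0 to 59 reads per sample.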

Other observations

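Further bZIP genes had values worth setting beside the factors, chosen after their values were seen. *Fosl1*, which encodes the FOS protein FRA1, had 1 and 0 reads with isotype, 9 and 11 with anti-PD1, and 1 and 5 with anti-Lag3, and it was not called (adjusted p = 0.277 by edgeR for anti-PD1 against isotype). *Mafg*, the small MAF related to *Mafk*, had 103 and 92 reads with isotype, 152 and 161 with anti-PD1, and 110 and 126 with anti-Lag3 (log2 fold change 0.70 for anti-PD1 against isotype, adjusted p = 0.096 by edgeR). *Maf*, a large MAF that drives *Il10* and *Il21*, had a log2 fold change of 0.48 in that comparison (adjusted p = 0.0511 by edgeR). *Ddit3*, a stress-induced bZIP gene downstream of ATF4, had 56 and 90 reads with isotype, 43 and 124 with anti-PD1, and 32 and 41 with anti-Lag3 (adjusted p = 0.0547 by edgeR for anti-PD1 against anti-Lag3). Both anti-PD1 samples lay above both anti-Lag3 samples in CPM for *Ddit3*, as they did for *Atf4*.

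Between anti-PD1 and anti-Lag3, the kinase, activation gene, BACH2 target, and small MAF target lists had 0 calls by edgeR, with the smallest p in *Elk1*, *Tnf*, *Nfil3*, and *Blvrb*. Of the 10 CD4 T cell markers, *Cd5* was called higher with anti-PD1 than with isotype (1.01), while 7 of the 10 values were negative, 6 of them with groups that did not overlap, and the median was −0.22. *Cd3e* (−0.38), *Cd3d* (−0.34), *Cd3g* (−0.42), and *Cd4* (−0.32) were among these and were not called. Among other cell type markers, *Ighm*, *Igkc*, and *C1qa* were called lower (−0.89, −2.51, and −2.59), and none of the NK and CD8 T cell, dendritic cell, or erythroid and granulocyte markers was called (smallest p in *Cd8b1*, *Ccr9*, and *Hba-a1*). *Cd5* and *Igkc* lost their calls without the second anti-PD1 sample, and *Ighm* without the second isotype or the second anti-PD1 sample and by DESeq2 (adjusted p = 0.0738). *C1qa* lost its call without any of the 4 samples compared and by DESeq2 and limma-voom (largest adjusted p 0.191). Between anti-Lag3 and isotype no cell type marker was called, with the smallest p in *Cd5*, *Igkc*, *C1qa*, *Ccr9*, *Cd8b1*, and *Hba-a1*.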
